A study of Mus musculus with 24 samples.

Results

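Interferon response genes are the genes that cells switch on after interferon signalling, and 42 of them were chosen by name for this account. A gene was followed on the array row that carried its symbol alone, and where several such rows existed the brightest on average across the 24 arrays was taken. Of the 42 genes, 37 had such a row, and all 37 passed the filter on low values, which kept a gene lying above the array's own median on at least 2 arrays. Oas1a, Ifi27l2a, Dtx3l and Gbp2 stood only on rows shared with other genes, Ifi44 stood on no named row, and these 5 were not analysed here. The whole series held 22180 genes on rows of their own, of which 15496 were tested.

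RNA was measured on single-colour arrays, 1 per sample, in live stromal cells that flow cytometry had sorted out of gonadal fat; the donors were male C57Bl/6 mice. The 9 groups combined a sorted population with a feeding history. ND mice were lean on a normal diet, HFD mice were obese on a high-fat diet with 60% fat, and WL mice had 12 weeks of the high-fat diet and then 8 weeks off it. The populations were CD11c- adipose tissue macrophages (CD11c- ATM; 2 ND, 3 HFD and 2 WL arrays), CD11c+ adipose tissue macrophages (CD11c+ ATM; 3 HFD and 3 WL arrays), adipose tissue dendritic cells (ATDC; 2 ND and 3 HFD arrays) and preadipocytes (PA; 3 ND and 3 HFD arrays). CD11c is a surface integrin carried by dendritic cells and by macrophages that gather in obese fat. Samples were pools: 2 pools of cells from 4 mice for ND macrophages and dendritic cells, and 3 pools of 3 to 4 mice each for the HFD groups and for both preadipocyte groups. The sources used here give neither the pooling of the WL samples nor the age of the mice. A p-value here reflects the spread from sample to sample, not from mouse to mouse.

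Type I interferons signal through the receptor pair Ifnar1 and Ifnar2 and the kinases Jak1 and Tyk2 to a complex that holds Stat2 and Irf9 and binds a DNA element called the interferon-stimulated response element. Interferon gamma signals through Ifngr1 and Ifngr2 and acts on a different element, the gamma-activated sequence. The genes that follow encode RNA-binding antiviral proteins such as the Ifit and Oas families, GTPases that act on viruses and intracellular microbes (Mx and Gbp proteins and the immunity-related GTPases), the ubiquitin-like protein Isg15 with its enzymes, and the parts of the proteasome and the peptide transporter that feed MHC class I molecules. In adipose tissue, macrophages and dendritic cells carry both receptors and respond to both kinds of interferon, and so do the preadipocytes from which fat cells form.

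Every value given is a log2 expression value, so that a difference of 1 log2 unit is a doubling, and a group's mean is followed by the standard deviation (SD) over its arrays. Differences between groups come from 1 limma fit of all 24 arrays with 15 residual degrees of freedom. They are followed by their standard error (SE) and by a p-value adjusted for all 15496 genes by the Benjamini-Hochberg method, with 0.05 as the threshold for a call. Array rows bind their RNA with different strength, so levels are compared between groups for 1 gene and not between genes.

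The arrays carried the markers that their labels name, with exceptions that touch the results. The median of 10 macrophage markers lay between 9.52 and 10.68 on the 13 macrophage arrays and between 4.13 and 8.10 on the 6 PA arrays. On the ATDC arrays these macrophage markers lay at 8.59 and 8.69 (ND) and at 7.81, 9.46 and 8.99 (HFD), so HFD ATDC replicate 2 came close to the macrophages. The median of 8 dendritic cell markers lay at 7.97 to 8.67 on the 5 ATDC arrays and at 2.85 to 4.73 on the other arrays, and that of 9 preadipocyte markers at 10.40 to 10.94 on the PA arrays. Markers of other cells were present too: the mast cell markers, 6 genes, reached 9.34 and 9.50 on the WL CD11c- ATM arrays and 6.41 to 7.08 on the WL CD11c+ ATM arrays, and the NK cell markers, 7 genes, reached 7.04 and 7.38 on the ND ATDC arrays. Within groups of 3, HFD CD11c- ATM replicate 1 (mast cell), HFD CD11c- ATM replicate 3 (preadipocyte), HFD CD11c+ ATM replicate 1 (mast cell), HFD ATDC replicate 1 (NK and mast cell) and ND PA replicate 1 (monocyte) lay at least 1.5 log2 units above both other arrays for the markers of a cell they were not sorted for.

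Promoter windows are shown first, since the response element described above can be looked for in them. RefSeq windows of 300 bases from mouse build GRCm38.p6, most of each upstream of an annotated start and the rest just after it, were found for 32 of the 42 genes; Dhx58, Ifi27l2a, Mx1, Mx2, Oas2, Parp14, Parp9, Rtp4, Usp18 and Zbp1 were not matched. The interferon-stimulated response element was searched for on both strands as GAAANNGAAA, whose reverse is TTTCNNTTTC, and matches were allowed to overlap each other. It occurred in 16 of the 32 genes (50.0%) and in 3.99% of the 27025 genes with a window. The gamma-activated sequence, searched for as TTCNNNGAA, occurred in 10 of 32 genes (31.3%) and in 9.55% of all. Windows are printed 5′ to 3′ on the gene's strand, with matches to GAAANNGAAA or its reverse in capitals. Isg15 (chr4:156200769-156201068, minus strand) is shown because it holds the most matches, 3 in an overlapping run, and Ifit1 (chr19:34640639-34640938, plus strand) because it holds 2 separate ones. Stat2 (chr10:128270248-128270547, plus strand) and Ifih1 (chr2:62646206-62646505, minus strand) are the genes that fell in CD11c- ATM after weight loss, and Tap1 (chr17:34187306-34187605, plus strand), which holds no match, was higher in dendritic cells than in macrophages on either diet.
Isg15: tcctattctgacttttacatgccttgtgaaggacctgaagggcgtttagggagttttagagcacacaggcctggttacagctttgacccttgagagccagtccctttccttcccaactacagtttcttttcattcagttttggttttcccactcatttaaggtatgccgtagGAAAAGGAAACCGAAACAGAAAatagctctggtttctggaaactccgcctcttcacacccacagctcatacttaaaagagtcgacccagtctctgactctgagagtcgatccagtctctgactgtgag
Ifit1: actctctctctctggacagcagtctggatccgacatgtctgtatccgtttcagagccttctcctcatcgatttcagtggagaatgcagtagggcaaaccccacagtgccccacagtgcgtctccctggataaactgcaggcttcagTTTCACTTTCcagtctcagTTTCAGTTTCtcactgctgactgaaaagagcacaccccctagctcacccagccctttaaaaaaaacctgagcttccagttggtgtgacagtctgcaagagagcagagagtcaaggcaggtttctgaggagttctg
Stat2: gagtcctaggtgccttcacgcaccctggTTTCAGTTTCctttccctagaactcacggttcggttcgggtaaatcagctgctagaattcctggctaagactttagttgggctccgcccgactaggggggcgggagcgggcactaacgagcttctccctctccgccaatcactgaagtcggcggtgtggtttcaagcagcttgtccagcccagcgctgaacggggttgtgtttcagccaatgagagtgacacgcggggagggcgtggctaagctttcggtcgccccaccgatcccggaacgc
Ifih1: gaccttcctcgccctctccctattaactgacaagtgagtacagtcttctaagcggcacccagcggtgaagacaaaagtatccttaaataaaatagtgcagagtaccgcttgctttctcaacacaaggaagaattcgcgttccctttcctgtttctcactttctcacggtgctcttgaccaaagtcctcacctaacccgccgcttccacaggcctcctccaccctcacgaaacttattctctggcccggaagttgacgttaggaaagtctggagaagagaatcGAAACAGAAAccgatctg
Tap1: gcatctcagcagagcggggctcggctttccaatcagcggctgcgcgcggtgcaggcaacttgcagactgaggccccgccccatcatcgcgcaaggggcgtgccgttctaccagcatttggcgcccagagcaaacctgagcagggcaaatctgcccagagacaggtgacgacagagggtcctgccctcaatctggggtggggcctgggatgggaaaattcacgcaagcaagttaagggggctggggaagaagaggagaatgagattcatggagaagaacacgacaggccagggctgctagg
Counted from the annotated start, the Isg15 run begins at base -78 and its last match at -66, the Ifit1 matches begin at -104 and -85, the Stat2 match at -222 and the Ifih1 match at 32, after the start. The Tap1 window overlaps that of Psmb9, the gene on the opposite strand beside it, and neither window holds these letters. A match is a description of the letters only.

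Across the 9 groups the genes did not move as 1 block. The median over the 37 genes was highest in the macrophages of ND and HFD mice, at 6.23 ± 0.02 in ND CD11c- ATM (SD, n = 2), 6.22 ± 0.33 in HFD CD11c- ATM and 6.13 ± 0.15 in HFD CD11c+ ATM (both n = 3). It was 5.74 ± 0.40 in WL CD11c- ATM (n = 2) and 5.48 ± 0.22 in WL CD11c+ ATM (n = 3), where the 3 arrays lay at 5.23, 5.64 and 5.57. The dendritic cells stood at 5.70 ± 0.06 (ND, n = 2) and 5.66 ± 0.15 (HFD, n = 3), and the preadipocytes at 5.81 ± 0.19 and 5.86 ± 0.34 (n = 3 each). All 3 WL CD11c+ ATM arrays lay below all ND and HFD macrophage arrays, whereas WL CD11c- ATM replicate 1, at 6.02, lay within the range of the HFD arrays.

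**Figure D1:**
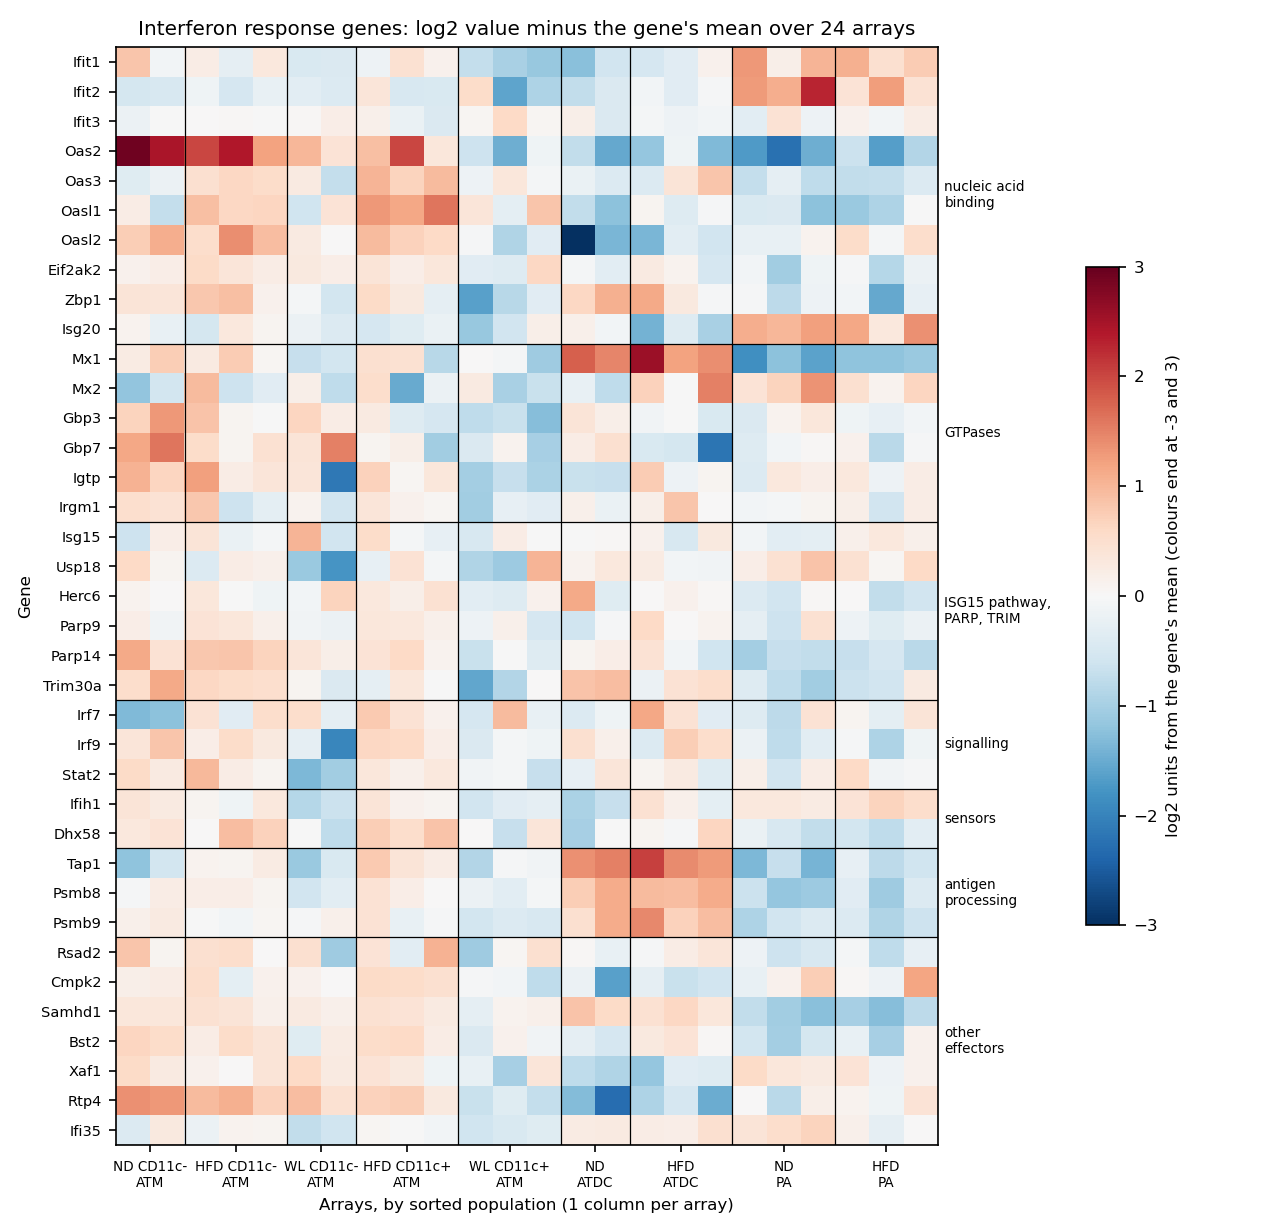
Each row is 1 of the 37 measured interferon response genes, grouped by role, and each column is 1 array, grouped by sorted population. Colour gives the log2 value minus the gene's mean over 24 arrays, with the scale ending at -3 and 3; Oas2 and Rtp4 were high in ND and HFD macrophages, Mx1, Tap1, Psmb8 and Psmb9 in dendritic cells, and Ifit2 and Isg20 in preadipocytes.

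ND CD11c- ATM was the group with the highest mean for 11 of the 37 genes, followed by ND PA for 6 and HFD CD11c+ ATM for 5. ND PA was also the lowest group for the largest number of genes, 9, followed by ND ATDC with 7 and WL CD11c+ ATM with 6. The distance between a gene's highest and lowest group mean had a median of 1.70 log2 units over the 37 genes and 1.19 over all 15496 genes, and it was over 2 for 24.3% of the former and 23.2% of the latter. It was widest for Oas2 (4.50), Mx1 (3.29), Oasl2 (3.13), Rtp4 (3.12) and Tap1 (2.73), and narrowest for Isg15 (0.45) and Ifit3 (0.40). As a description over the 24 arrays, which share populations and diets, the 666 pairs of genes had a median Pearson correlation of 0.168, and 220 pairs (33.0%) were negative. The tightest pairs were Mx1 with Psmb8 (0.895), Mx1 with Psmb9 (0.878), Tap1 with Psmb8 (0.875) and Psmb8 with Psmb9 (0.870). Next came Psmb8 with Samhd1 and Mx1 with Tap1 (both 0.827), Oas2 with Parp14 (0.815), Tap1 with Psmb9 (0.815) and Oasl2 with Rtp4 (0.813), and the most opposed were Ifit2 and Samhd1 (-0.792).

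Genes outside the list whose values ran closest to the mean of the 37 genes over the 24 arrays were Dmac1 (0.883), 2810013P06Rik (0.837), Hps1 (0.827), Parp2 (0.821), Oas1g (0.819), Stxbp3 (0.806), Cxcl16 (0.802) and Chst7 (0.793), each with its Pearson correlation. Oas1g belongs to the same antiviral family as Oas2, and Cxcl16 is a chemokine.

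Of the RNA-binding antiviral genes, Oas2 had the widest spread between populations. It makes the short oligoadenylates that activate RNase L when it meets double-stranded RNA. In CD11c- ATM Oas2 measured 7.86 and 7.39 on the ND arrays, 6.94, 7.34 and 6.14 on the HFD arrays and 5.93 and 5.35 on the WL arrays. In CD11c+ ATM the HFD arrays gave 5.84, 6.95 and 5.27 and the WL arrays 4.30, 3.48 and 4.82. The ATDC arrays gave 4.20 and 3.41 (ND) and 3.77, 4.82 and 3.62 (HFD), and the PA arrays 3.23, 2.69 and 3.46 (ND) and 4.28, 3.28 and 4.06 (HFD). Every ND and HFD macrophage array thus lay above every ATDC and PA array, and the WL CD11c+ ATM arrays lay among the latter.

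Ifit1 and Ifit3 belong to 1 family of proteins that bind viral RNA, and they behaved unlike each other. Ifit1 measured 5.62 and 4.69 in ND CD11c- ATM, 4.99, 4.52 and 5.10 in HFD CD11c- ATM, 4.33 and 4.35 in WL CD11c- ATM, 4.64, 5.25 and 4.91 in HFD CD11c+ ATM and 4.07, 3.81 and 3.64 in WL CD11c+ ATM. In the remaining populations it measured 3.52 and 4.20 (ND ATDC), 4.27, 4.45 and 4.90 (HFD ATDC), 6.07, 4.96 and 5.81 (ND PA) and 5.84, 5.25 and 5.54 (HFD PA). Its group means ran from the 2 PA groups at the top to WL CD11c+ ATM and ND ATDC at the bottom, and the PA arrays overlapped those of lean macrophages. Ifit3 measured 5.40 and 5.57 in ND CD11c- ATM, 5.58, 5.61 and 5.56 in HFD CD11c- ATM, 5.62 and 5.77 in WL CD11c- ATM, 5.73, 5.39 and 5.14 in HFD CD11c+ ATM and 5.64, 6.17 and 5.64 in WL CD11c+ ATM. It measured 5.75 and 5.14 in ND ATDC, 5.52, 5.43 and 5.51 in HFD ATDC, 5.25, 6.01 and 5.43 in ND PA and 5.70, 5.50 and 5.80 in HFD PA. Its group means lay within 0.40 log2 units of each other, and the arrays of every group overlapped those of others.

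**Figure D2:**
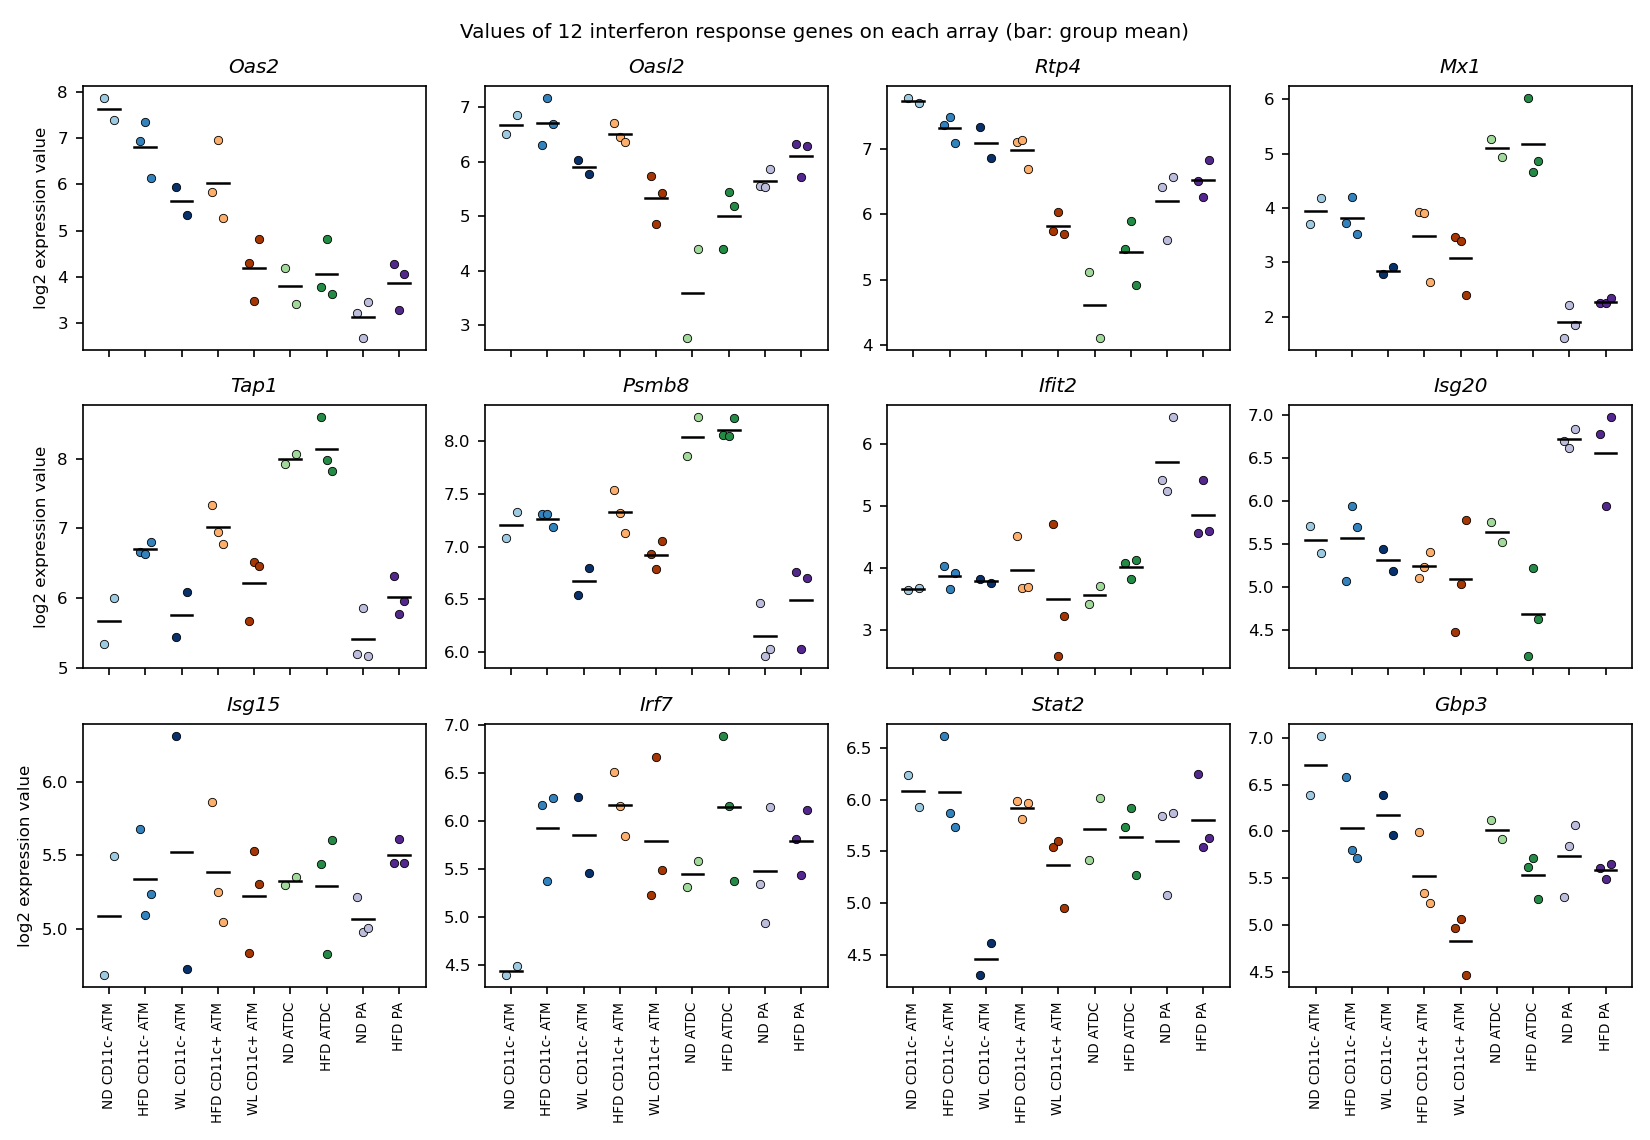
Each panel gives 1 gene's log2 value on each of the 24 arrays by group (points) with the group mean (bar); the vertical axes differ between panels. Oas2, Oasl2 and Rtp4 are higher in ND and HFD macrophages than in dendritic cells, Mx1, Tap1 and Psmb8 are highest in dendritic cells, Ifit2 and Isg20 in preadipocytes, and each group overlaps at least 1 other for Isg15.

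Isg15, the ubiquitin-like modifier that gives the interferon-stimulated genes their common label, differed little between groups, with a range of group means of 0.45 log2 units. It measured 4.68 and 5.50 in ND CD11c- ATM, 5.68, 5.10 and 5.24 in HFD CD11c- ATM, 6.32 and 4.72 in WL CD11c- ATM, 5.86, 5.25 and 5.05 in HFD CD11c+ ATM and 4.83, 5.53 and 5.30 in WL CD11c+ ATM. The other arrays gave 5.30 and 5.35 (ND ATDC), 5.44, 4.83 and 5.61 (HFD ATDC), 5.22, 4.98 and 5.01 (ND PA) and 5.45, 5.61 and 5.45 (HFD PA). The 2 WL CD11c- ATM arrays held the highest value of all 24 and the second lowest, and every group overlapped others.

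Among the signalling factors, Irf7, the transcription factor that amplifies type I interferon production, was low in lean macrophages. It measured 4.39 and 4.48 in ND CD11c- ATM, 6.17, 5.37 and 6.24 in HFD CD11c- ATM, 6.25 and 5.46 in WL CD11c- ATM, 6.51, 6.16 and 5.84 in HFD CD11c+ ATM and 5.23, 6.67 and 5.49 in WL CD11c+ ATM. It measured 5.31 and 5.58 in ND ATDC, 6.89, 6.16 and 5.38 in HFD ATDC, 5.34, 4.93 and 6.15 in ND PA and 5.81, 5.43 and 6.11 in HFD PA. Both ND CD11c- ATM arrays lay below every other array, a difference that did not pass the test given below. Stat2, a part of the type I complex, measured 6.24 and 5.93 in ND CD11c- ATM, 6.62, 5.87 and 5.74 in HFD CD11c- ATM, 4.30 and 4.61 in WL CD11c- ATM, 5.98, 5.81 and 5.97 in HFD CD11c+ ATM and 5.54, 5.60 and 4.95 in WL CD11c+ ATM. It measured 5.41 and 6.02 in ND ATDC, 5.73, 5.92 and 5.27 in HFD ATDC, 5.84, 5.08 and 5.87 in ND PA and 6.24, 5.54 and 5.63 in HFD PA. The 2 WL CD11c- ATM arrays lay below all 22 others.

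Of the effectors, Rsad2 (viperin, an enzyme that makes a chain-terminating nucleotide) was dim, lying above the array median on 20 of 24 arrays. It measured 4.48 and 3.73 in ND CD11c- ATM, 4.11, 4.15 and 3.65 in HFD CD11c- ATM, 4.13 and 2.57 in WL CD11c- ATM, 4.05, 3.32 and 4.69 in HFD CD11c+ ATM and 2.57, 3.71 and 4.13 in WL CD11c+ ATM. It measured 3.68 and 3.41 in ND ATDC, 3.59, 3.85 and 4.00 in HFD ATDC, 3.50, 3.01 and 3.16 in ND PA and 3.58, 2.87 and 3.39 in HFD PA, and its groups overlapped throughout the macrophages. Bst2 (tetherin), which holds budding virus particles at the cell surface, measured 9.50 and 9.41 in ND CD11c- ATM, 9.07, 9.40 and 9.24 in HFD CD11c- ATM, 8.50 and 9.10 in WL CD11c- ATM, 9.42, 9.46 and 9.08 in HFD CD11c+ ATM and 8.43, 8.99 and 8.76 in WL CD11c+ ATM. It measured 8.58 and 8.35 in ND ATDC, 9.16, 9.27 and 8.90 in HFD ATDC, 8.31, 7.84 and 8.33 in ND PA and 8.64, 7.85 and 8.99 in HFD PA, with ND macrophages at the top and ND PA at the bottom. Psmb8, an immunoproteasome subunit, measured 7.08 and 7.33 in ND CD11c- ATM, 7.30, 7.31 and 7.18 in HFD CD11c- ATM, 6.54 and 6.80 in WL CD11c- ATM, 7.53, 7.32 and 7.13 in HFD CD11c+ ATM and 6.93, 6.79 and 7.05 in WL CD11c+ ATM. The same gene measured 7.85 and 8.23 in ND ATDC, 8.05, 8.05 and 8.22 in HFD ATDC, 6.47, 5.96 and 6.03 in ND PA and 6.76, 6.03 and 6.70 in HFD PA. All 5 ATDC arrays lay above all others for Psmb8, and 5 of the 6 lowest arrays were from PA.

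In lean fat, the genes called between dendritic cells and CD11c- macrophages were mostly lower in dendritic cells. Oas2, Rtp4 and Oasl2 were lower in ND ATDC by 3 log2 units or more, and Tap1, the peptide transporter subunit that loads MHC class I, was higher. Of the 37 genes 7 passed the threshold, 6 of them lower and 1 higher in ATDC, against 8.27% of all genes in either direction, 4.6% lower and 3.67% higher. Rtp4, a chaperone that helps receptors reach the membrane, measured 5.12 and 4.12 in ND ATDC and 7.78 and 7.70 in ND CD11c- ATM, a difference of -3.12 ± 0.37 (SE; limma adjusted p = 1.34e-05). Oasl2, an Oas relative with ubiquitin-like domains, measured 2.77 and 4.40 against 6.50 and 6.85, a difference of -3.09 ± 0.44 (adjusted p = 0.000111), and Oas2 differed by -3.82 ± 0.56 (adjusted p = 0.00014). Tap1 measured 7.92 and 8.07 against 5.35 and 6.01, a difference of 2.32 ± 0.35 (adjusted p = 0.000232). For these 4 genes the groups did not overlap, and each remained past the threshold when any 1 array of the groups compared was left out. Fewer cells of a type in a sort and less RNA per cell cannot be told apart in such bulk samples.

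Smaller differences in the same comparison were seen for Ifit1 (-1.30 ± 0.38, adjusted p = 0.0367), Xaf1, an interferon-induced gene linked to apoptosis (-1.26 ± 0.36, adjusted p = 0.0325), and Ifih1, the sensor Mda5 for long double-stranded RNA (-1.14 ± 0.24, adjusted p = 0.0044). All 3 were lower in ATDC with no overlap. Ifit1 missed the threshold without ND CD11c- ATM replicate 1 (0.385) or ND ATDC replicate 1 (0.293), Ifih1 without ND ATDC replicate 1 (0.0552), and Xaf1 without any 1 of the 4 arrays (0.0837 to 0.211). Each of these fits left 1 array in a group. Without ND ATDC replicate 1 a gene not called with all arrays, Cmpk2, was gained (-1.81). The median difference over the 37 genes was -0.35, against -0.01 over all genes. The ND ATDC arrays also carried NK cell markers at 7.04 and 7.38 against 3.72 and 4.06 in ND CD11c- ATM and macrophage markers at 8.59 and 8.69 against 10.58 and 10.68. Their T cell markers lay at 6.88 and 7.85 against 4.34 and 5.83. The part of those cells in these differences was not tested.

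In obese fat, ATDC likewise had lower Oas2, Rtp4 and Oasl2 and higher Tap1 than a macrophage population, here CD11c+ ATM, in arrays that the lean comparison did not use. Of the 37 genes, 4 were higher and 4 lower in HFD ATDC, against 4.16% of all genes in either direction, 1.72% higher and 2.44% lower. The 4 lower genes were Oas2 (-1.95 ± 0.46, adjusted p = 0.0159), Rtp4 (-1.55 ± 0.30, 0.0042), Oasl2 (-1.5 ± 0.36, 0.0189) and Oasl1 (-1.47 ± 0.35, 0.0193), which restrains Irf7 translation. The 4 higher genes were Mx1 (1.69 ± 0.38, 0.0116), a gene of the Mx GTPase family, Tap1 (1.11 ± 0.29, 0.0321) and the immunoproteasome subunits Psmb9 (0.95 ± 0.23, 0.0226) and Psmb8 (0.78 ± 0.21, 0.0431). All 3 measured genes of antigen processing were thus higher in ATDC, and 3 of the 10 measured RNA-binding genes were lower.

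The array values behind these calls did not overlap between the groups. Mx1 measured 6.02, 4.66 and 4.86 in HFD ATDC against 3.93, 3.90 and 2.63 in HFD CD11c+ ATM, and Tap1 8.60, 7.98 and 7.83 against 7.34, 6.95 and 6.77. Oasl1 measured 4.80, 4.33 and 4.68 against 6.02, 5.87 and 6.33, and Rtp4 5.47, 5.90 and 4.93 against 7.10, 7.14 and 6.69. Rtp4 stayed past the threshold whichever single array was left out, and the other 7 did not: 5 genes passed without HFD CD11c+ ATM replicate 1, 3 without replicate 2, 2 without replicate 3, 1 without HFD ATDC replicate 1, and 6 without HFD ATDC replicate 2 or replicate 3. HFD ATDC replicate 1 carried NK cell markers at 6.92 and mast cell markers at 6.59, and HFD CD11c+ ATM replicate 1 mast cell markers at 5.60. An alternative fit left out both arrays together with ND PA replicate 1 and HFD CD11c- ATM replicates 1 and 3. In it no gene passed, at limma adjusted p-values from 0.137 (Mx1) to 0.454 (Oasl2), and all 8 kept their sign. T cell markers lay at 5.52 to 6.96 on the HFD ATDC arrays and at 3.98 to 5.57 on the HFD CD11c+ ATM arrays. Macrophage markers lay at 7.81, 9.46 and 8.99 in HFD ATDC against 10.37, 10.27 and 10.15 in HFD CD11c+ ATM. The part of all these cells in the differences was not tested. The median difference over the 37 genes was -0.14 as deposited and 0.03 when each array was centred on its own median, a step that removed a shift of -0.17 common to all genes, so the list as a whole had no settled direction here.

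Preadipocytes and CD11c- macrophages of lean fat differed in the largest number of these genes, and the comparison shares the ND CD11c- ATM arrays with the ATDC comparison above. Of the 37 genes, 3 were higher and 11 lower in ND PA, against 23.4% of all genes in either direction, 12.6% higher and 10.8% lower. Oas2 differed by -4.50 ± 0.51 (adjusted p = 1.27e-06), the largest difference of any of these genes in any comparison made. Parp14, an ADP-ribosyltransferase, measured 5.90, 6.24 and 6.18 against 8.06 and 7.37 (-1.61 ± 0.28, adjusted p = 0.000185), and Samhd1, which breaks down the nucleotides that viruses need, 8.98, 8.68 and 8.46 against 10.06 and 10.05 (-1.35 ± 0.21, adjusted p = 6.11e-05). Mx1 measured 1.61, 2.22 and 1.84 against 3.71 and 4.19 (-2.06 ± 0.42, adjusted p = 0.000932). Every ND PA array lay below its own median for Mx1. With those medians in place of the ND PA values the difference was -0.90, an estimate that leaves out the spread of the ND CD11c- ATM arrays. Rtp4 (-1.54 ± 0.34), the ubiquitin ligase Trim30a (-1.56 ± 0.38), the GTPase Gbp7 (-1.51 ± 0.49), Bst2 (-1.29 ± 0.29) and Psmb8 (-1.05 ± 0.24) were lower as well, at adjusted p-values of 0.0017, 0.0041, 0.0286, 0.0023 and 0.0023. The remaining 2 lower genes, named after their values were seen, were Gbp3 (-0.97 ± 0.32, 0.0301) and Psmb9 (-0.85 ± 0.26, 0.0228).

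In lean fat 3 of the 37 genes were called higher in preadipocytes than in macrophages, a smaller share than the 12.6% of all genes. The group means of Ifit2 and Isg20 were highest in ND PA. Ifit2, which restrains translation of viral RNA, measured 5.43, 5.25 and 6.44 in ND PA against 3.64 and 3.68 in ND CD11c- ATM (2.04 ± 0.46, adjusted p = 0.0021). Mx2 measured 4.27, 4.53 and 5.21 against 2.67 and 3.31 (1.68 ± 0.57, adjusted p = 0.038), and Isg20, a 3′ to 5′ exonuclease, 6.69, 6.61 and 6.84 against 5.70 and 5.39 (1.17 ± 0.37, adjusted p = 0.0251). None of the 3 overlapped between groups, and the HFD PA arrays gave Ifit2 at 4.56, 5.42 and 4.60 and Isg20 at 6.77, 5.94 and 6.98. Mx2 was about as high in HFD ATDC, at 4.59 ± 0.76 (SD), as in ND PA (4.67 ± 0.49) and HFD PA (4.26 ± 0.28). Its highest array was from HFD ATDC (5.37). Of the 14 calls, those of Ifit2, Oas2, Mx1, Parp14, Psmb8, Samhd1, Bst2 and Rtp4 held whichever single array was left out. The count was 11 without ND PA replicate 1 and 12 without ND PA replicate 2 or 3. Leaving out an ND CD11c- ATM array left 1 in that group, and the calls of Isg20, Mx2, Gbp7 and Psmb9 were lost without either array. Without ND CD11c- ATM replicate 2 those of Gbp3 and Trim30a were lost too, and Ifi35, not called with all arrays, was gained (0.94). The median difference was -0.49 over the 37 genes and -0.01 over all genes, and centring the arrays on their medians removed a common shift of 0.17. ND PA replicate 1 carried monocyte markers at 7.22 against 5.28 and 4.85 on the other ND PA arrays, and the part of such cells was not tested.

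A high-fat diet was followed by no called change of any of the 37 genes in any of the 3 populations measured on both diets. In CD11c- ATM 0 of 37 genes passed the limma threshold, against 0.613% of all genes, and their median difference was -0.01. In ATDC 0 passed, against 0.258% of all genes, with a median difference of 0.20. In PA 0 passed, against 2.59% of all genes, with a median difference of 0.05. Over all genes the 3 medians lay between -0.02 and 0.01.

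The largest differences with diet are therefore given as values only. In CD11c- ATM, HFD minus ND was 1.49 ± 0.46 for Irf7 (adjusted p = 0.197), 1.02 ± 0.32 for Tap1 (6.65, 6.63 and 6.80 against 5.35 and 6.01; adjusted p = 0.217) and -1.01 ± 0.49 for Gbp7 (adjusted p = 0.592). None of these 3 genes was called, and the groups held 3 and 2 arrays. In ATDC they were 1.42 ± 0.40 for Oasl2 (adjusted p = 0.182), -1.41 ± 0.49 for Gbp7 (adjusted p = 0.332) and 1.23 ± 0.57 for Mx2 (adjusted p = 0.552). Without ND ATDC replicate 2 Oasl2 passed, with a difference of 2.24 and an adjusted p of 0.0187; its ND ATDC values were 2.77 and 4.40. In PA the largest were -0.84 ± 0.41 for Ifit2 (adjusted p = 0.44), 0.75 ± 0.46 for Oas2 (adjusted p = 0.614) and 0.60 ± 0.29 for Tap1 (adjusted p = 0.431).

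Whether the effect of the diet differed between populations was tested in the same fit. For ATDC against CD11c- ATM 0 of 37 genes passed, against 0.0581% of all genes. The largest estimates were for Oasl2 (1.38 ± 0.57, adjusted p = 0.59), Rtp4 (1.24 ± 0.47, 0.54) and Ifih1 (1.16 ± 0.31, 0.269). For PA against CD11c- ATM 0 passed, against 0.277% of all genes. The largest were for Oas2 (1.57 ± 0.68, adjusted p = 0.472), Mx2 (-1.26 ± 0.77, 0.694) and Irf7 (-1.18 ± 0.62, 0.612). Both interactions share the CD11c- ATM arrays.

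Within obese fat no difference between CD11c+ and CD11c- macrophages was called. Of the 37 genes 0 passed (limma), against 0.00645% of all genes, and the median difference, CD11c+ minus CD11c-, was 0.05 beside 0.04 over all genes. The largest were -0.79 ± 0.46 for Oas2 (adjusted p = 0.84), 0.64 ± 0.35 for Oasl1 (adjusted p = 0.83) and -0.63 ± 0.44 for Gbp7 (adjusted p = 0.907). A missed threshold does not show that the levels were equal.

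After weight loss, Stat2 and Ifih1 fell in CD11c- ATM compared with the HFD state. Stat2 went from 6.62, 5.87 and 5.74 in HFD to 4.30 and 4.61 in WL, a difference of -1.62 ± 0.33 (limma adjusted p = 0.0109), and Ifih1 from 6.55, 6.36 and 6.79 to 5.63 and 5.83, a difference of -0.84 ± 0.22 (adjusted p = 0.0449). Neither gene overlapped between the groups. These were the only 2 of the 37 genes past the threshold, against 2.96% of all genes in either direction and 1.79% lower. Of the 37 genes 30 had a lower mean in WL, with a median difference of -0.50 beside -0.09 over all genes, 42.7% of which were higher in WL; centring the arrays removed a common shift of -0.14. The next largest were -1.5 ± 0.49 for Igtp, an immunity-related GTPase (adjusted p = 0.104; 6.71 and 4.22 in WL), -1.47 ± 0.40 for Irf9, the DNA-binding partner of Stat2 (adjusted p = 0.0547; 6.12 and 4.44 in WL), and -1.42 ± 0.45 for Usp18 (adjusted p = 0.0927). For Igtp and Irf9 WL replicate 2 was far lower than replicate 1, and both passed without replicate 1, at adjusted p-values of 0.00099 and 0.00438.

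**Figure D3:**
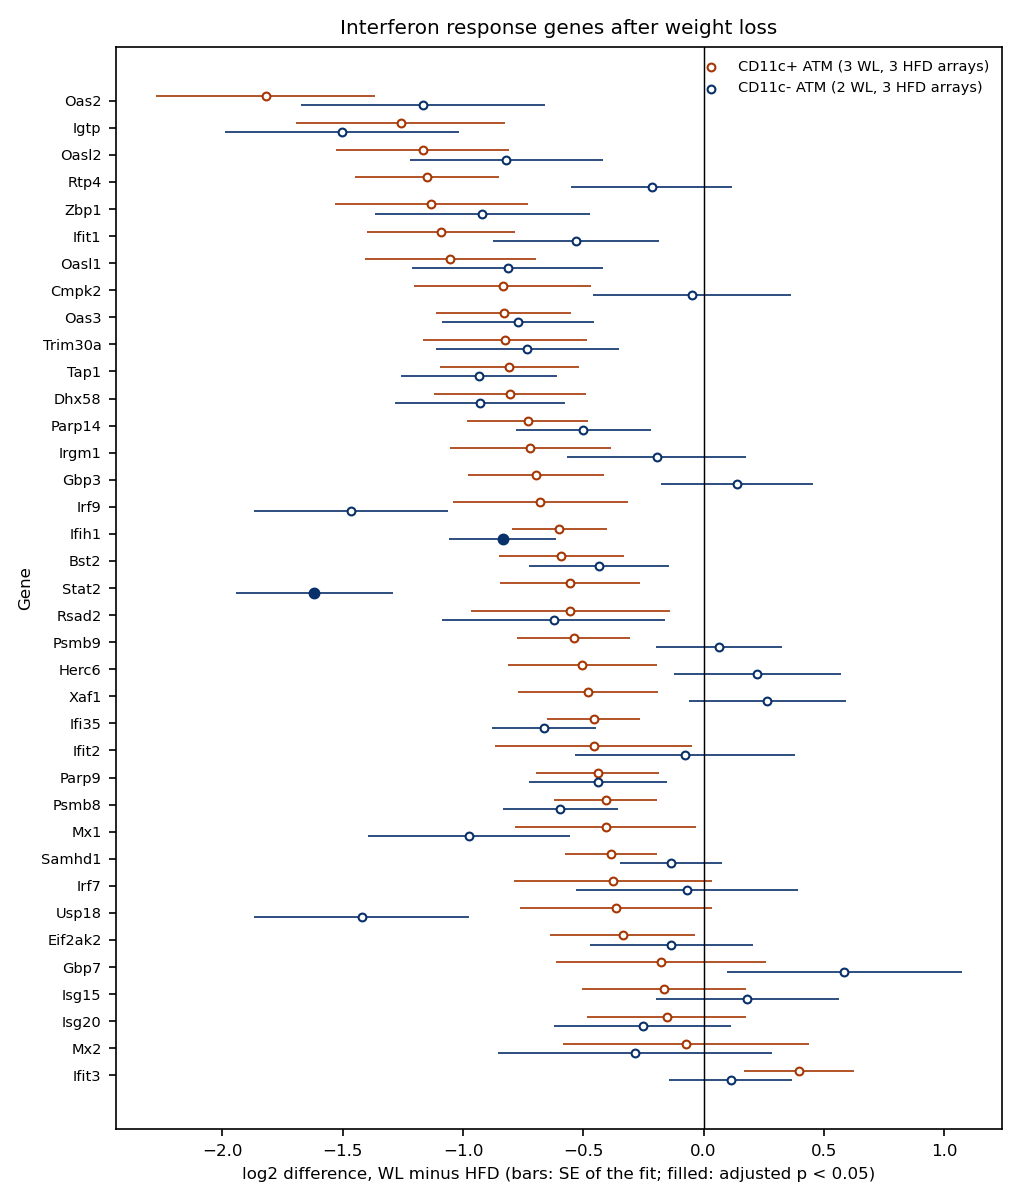
Each row is 1 of the 37 genes and each point its log2 difference, WL minus HFD, in CD11c+ ATM (orange) and CD11c- ATM (blue), with bars of 1 SE of the limma fit and filled points for adjusted p under 0.05. Stat2 and Ifih1 in CD11c- ATM are the filled points, and in CD11c+ ATM 36 of 37 points lie below 0 with none filled.

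The calls in CD11c- ATM rested on few arrays. Without HFD replicate 1 neither gene passed, without HFD replicate 2, HFD replicate 3 or WL replicate 2 only 1 gene did, and without WL replicate 1 the 2 that passed were Igtp and Irf9. Adjusted p-values over the arrays left out ran from 0.00932 to 0.0784 for Stat2 and from 0.053 to 0.213 for Ifih1. HFD replicate 1 carried mast cell markers at 7.26 and HFD replicate 3 preadipocyte markers at 9.25. The fit without them also left out ND PA replicate 1, HFD CD11c+ ATM replicate 1 and HFD ATDC replicate 1. That fit kept 1 HFD array of CD11c- ATM, assumed to vary like the other groups, and both calls were lost in it.

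Compared with lean mice, CD11c- ATM of WL mice had lower Oas2, Usp18, Irf9, Stat2 and Ifih1, in a comparison that shares the WL arrays with the one above. Usp18, which also blocks the type I receptor, measured 3.75 and 3.08 in WL against 5.46 and 4.94 in ND (-1.78 ± 0.49, adjusted p = 0.0342), and Irf9 6.12 and 4.44 against 6.77 and 7.24 (-1.72 ± 0.44, adjusted p = 0.0248). Stat2 differed by -1.63 ± 0.36 (adjusted p = 0.0095), Oas2 by -1.99 ± 0.56 (adjusted p = 0.0385) and Ifih1, at 5.63 and 5.83 against 6.85 and 6.75, by -1.07 ± 0.24 (adjusted p = 0.0115). None of the 5 overlapped. They were 5 of 37 genes, all lower, against 6.18% of all genes in either direction and 2.95% lower, and the median difference was -0.53 beside -0.08. Leaving out any array left 1 in its group. All these calls were lost without ND replicate 1, and all but that of Stat2 without ND replicate 2. The calls of Oas2, Stat2 and Ifih1 were lost without WL replicate 1, where Igtp, not called with all arrays, was gained (-2.98). Those of Oas2, Usp18 and Irf9 were lost without WL replicate 2.

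In CD11c+ ATM no gene passed after weight loss, although 36 of 37 had a lower mean. The background was 1.33% of all genes past the threshold, and 41.8% of all genes were higher in WL, beside 2.70% of the 37. The median difference was -0.56, beside -0.10 over all genes, and it was -0.94 over the 10 RNA-binding genes and between -0.70 and -0.47 over the other role groups. Centring the arrays removed a common shift of -0.13. By the unadjusted limma p, 19 of 37 genes were under 0.05, beside 3113 of 15496. Oas2 measured 4.30, 3.48 and 4.82 in WL against 5.84, 6.95 and 5.27 in HFD (-1.82 ± 0.46, adjusted p = 0.0535), Rtp4 5.74, 6.04 and 5.70 against 7.10, 7.14 and 6.69 (-1.15 ± 0.30, adjusted p = 0.0619), Oasl2 5.74, 4.86 and 5.42 against 6.70, 6.44 and 6.37 (-1.17 ± 0.36, adjusted p = 0.0966) and Igtp 5.34, 5.66 and 5.41 against 7.06, 6.42 and 6.70 (-1.26 ± 0.44, adjusted p = 0.131). None of these 4 genes was called. The 1 gene with a higher mean was Ifit3 (0.40 ± 0.23). Without WL CD11c+ ATM replicate 3 the genes past the threshold were 3: Oas2 (-2.13, adjusted p = 0.0239), Usp18 (-1.03, 0.0489) and Trim30a (-1.23, 0.0376).

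Between the macrophages of WL mice, Gbp3, a guanylate-binding GTPase, was lower in CD11c+ ATM than in CD11c- ATM, at 4.97, 5.06 and 4.46 against 6.39 and 5.96 (-1.34 ± 0.32, adjusted p = 0.0403). It was the 1 gene of 37 past the threshold, against 1.34% of all genes in either direction and 0.652% lower, and its groups did not overlap. The next largest were -1.44 ± 0.51 for Oas2 (adjusted p = 0.171) and -1.39 ± 0.49 for Gbp7 (adjusted p = 0.17), and the median was -0.20 beside 0.03 over all genes. The call of Gbp3 was lost without WL CD11c+ ATM replicate 3 or either WL CD11c- ATM array, at adjusted p-values up to 0.2, and without WL CD11c- ATM replicate 1 the 1 gene that passed was Irf9 (1.75, adjusted p = 0.0382). Whether weight loss acted differently on the 2 macrophage populations was tested as an interaction, and 0 of 37 genes passed, against 0.161% of all genes. The largest estimates were for Stat2 (1.06 ± 0.44, adjusted p = 0.639), Usp18 (1.06 ± 0.60, 0.775) and Rtp4 (-0.93 ± 0.45, 0.726).

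Markers of other cells differed with weight loss in both populations, and the 5 WL arrays were less like each other than the arrays of other groups. The mean Pearson correlation of an array with its own group over all tested genes was 0.881 to 0.918 on the WL arrays and 0.936 to 0.980 on the ND and HFD arrays. In CD11c- ATM the mast cell markers lay at 9.34 and 9.50 in WL, 2.42 to 7.26 in HFD and 2.40 and 2.79 in ND, with 6 of 6 past the threshold against ND and 4 of 6 against HFD. The preadipocyte markers lay at 8.89 and 9.0 in WL, 7.19 to 9.25 in HFD and 5.03 and 6.02 in ND, with 9 of 9 past the threshold against ND. In CD11c+ ATM the mast cell markers lay at 6.41 to 7.08 in WL and 2.38 to 5.60 in HFD (0 of 6 past the threshold), and the preadipocyte markers at 7.61 to 8.32 against 5.85 to 6.90 (2 of 9). In CD11c- ATM the WL arrays also lay above all HFD arrays for monocyte (7.94 and 8.07 against 6.87 to 7.22), NK cell (4.90 and 5.09 against 3.80 to 3.96), B cell (4.65 and 4.69 against 3.26 to 3.58), plasmacytoid dendritic cell (4.73 and 5.16 against 3.65 to 4.31) and endothelial markers (5.55 and 6.58 against 3.83 to 5.10). The macrophage markers lay at 9.83 and 9.84 (CD11c- ATM) and 9.52 to 10.11 (CD11c+ ATM) in WL, below the HFD arrays at 10.15 to 10.39. The part of these cells, and of the looser agreement between WL arrays, in the lower values after weight loss was not tested.

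**Figure D4:**
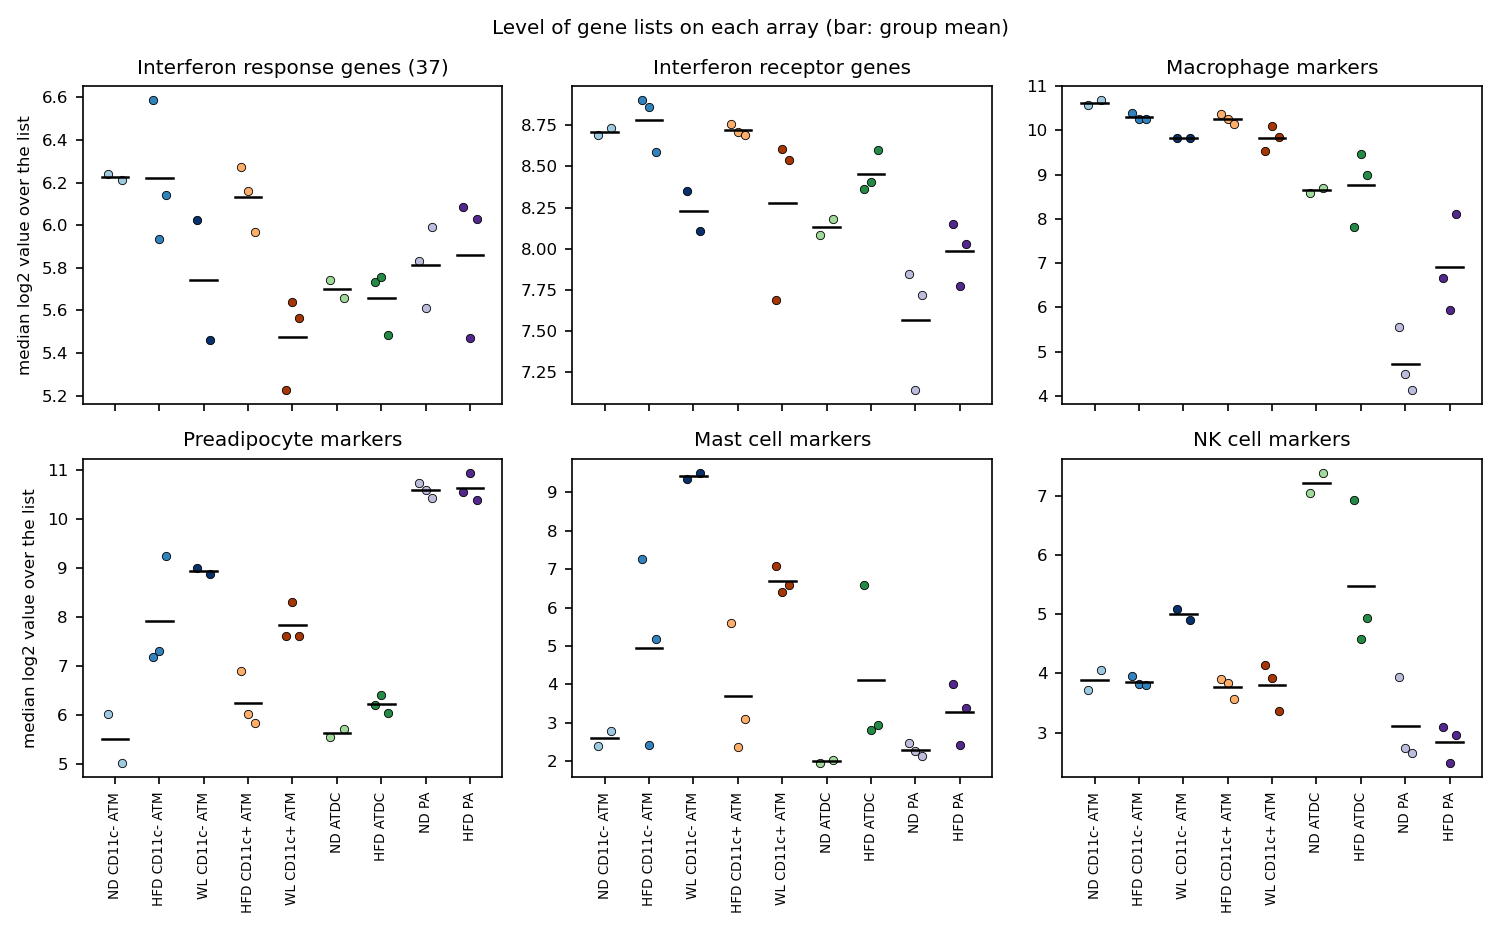
Each panel gives the median log2 value of a gene list on each array (points) with the group mean (bar); the vertical axes differ between panels. The WL CD11c+ ATM arrays, at 5.23 to 5.64, lie below the ND and HFD macrophage arrays for the 37 interferon response genes, the WL arrays are high for the mast cell markers, and the NK cell markers are high on the ND ATDC arrays and on 1 HFD ATDC array.

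Upstream of these genes, the receptors were measured in every population and the interferons were mostly at the level of dim rows. Of 21 interferon genes 19 stood on rows of their own and 10 passed the filter on low values, and none of the 10 passed the threshold in any of the 11 comparisons. The median of the 19 lay between 2.05 and 3.26 on all arrays, where the array medians lay between 2.96 and 3.15. Ifng, interferon gamma itself, was highest on HFD ATDC replicate 1, at 5.47 where the NK cell markers were at 6.92. It measured 4.11 and 4.52 on the ND ATDC arrays, where the NK cell markers were higher, at 7.04 to 7.38. The median of the 6 receptor genes lay at 8.58 to 8.90 on the ND and HFD macrophage arrays and at 7.14 to 7.84 on the ND PA arrays. In ND PA against ND CD11c- ATM 3 of the 6 were lower, against 10.8% of all genes: Il10rb, shared with the type III receptor (-2.02 ± 0.36, adjusted p = 0.000232), Ifnar1 (-1.13 ± 0.28, 0.0045) and Ifnar2 (-0.71 ± 0.20, 0.0119). Il10rb was also lower in ND ATDC than in ND CD11c- ATM (-1.33 ± 0.39, 0.0413), and no receptor gene passed in the remaining 9 comparisons.

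Of the 9 tested kinases and transcription factors of the pathway, Jak2, a kinase of the interferon gamma receptor, was higher in ATDC on both diets (1.62 ± 0.28 against HFD CD11c+ ATM, adjusted p = 0.0015, and 1.68 ± 0.34 against ND CD11c- ATM, adjusted p = 0.003). In ND PA 3 of the 9 were lower, against 10.8% of all genes, with Irf8, a factor of the myeloid lineage, at -5.28 ± 0.82 (adjusted p = 5.28e-05). Of the 15 nucleic acid sensing genes, Tlr3, the endosomal receptor for double-stranded RNA, was higher in ATDC (2.33 ± 0.29 on HFD, adjusted p = 5.99e-05, and 2.44 ± 0.36 on ND, adjusted p = 0.000148). Tlr7, its counterpart for single-stranded RNA, was lower in ND ATDC (-3.24 ± 0.68, 0.004) and in ND PA (-5.68 ± 0.62, 8.45e-07). In ND ATDC 1 of the 15 was higher and 3 lower, against 3.67% and 4.6% of all genes, and in ND PA 6 were lower, against 10.8%. After weight loss all 15 had a lower mean than in HFD in both macrophage populations, with medians of -0.56 in CD11c- ATM and -0.62 in CD11c+ ATM. None passed the limma threshold, and in CD11c+ ATM 6 were under an unadjusted 0.05. Most genes were lower in WL as well: of all genes 42.7% were higher in CD11c- ATM and 41.8% in CD11c+ ATM. The shares of all genes past the threshold were 2.96% and 1.33%, and 3113 of 15496 were under an unadjusted 0.05 in CD11c+ ATM. The largest differences among the 15 were -1.09 ± 0.33 for Tlr3 in CD11c- ATM (adjusted p = 0.0761) and -2.03 ± 0.53 for Tlr9, the endosomal DNA receptor, in CD11c+ ATM (adjusted p = 0.0622).

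Among the 9 tested negative regulators, Socs3 and Tnfaip3, inhibitors of cytokine and of NF-kappa-B signalling, rose in CD11c- ATM after weight loss. Socs3 rose by 1.24 ± 0.29 against HFD (adjusted p = 0.0236) and Tnfaip3 by 1.52 ± 0.35 (adjusted p = 0.0236), 2 of 9 where 2.96% of all genes were called. In CD11c+ ATM Socs3 rose by 1.48 ± 0.26 (adjusted p = 0.0089), 1 of 9 where 1.33% of all genes were called. Against ND, Tnfaip3 was higher in WL CD11c- ATM by 2.46 ± 0.39 (adjusted p = 0.000854) and Pias1 lower (-0.84 ± 0.24, 0.0444). Socs3 and Tnfaip3 respond to many cytokines besides interferon.

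A further list held 64 other interferon-stimulated genes, of which 57 were tested. In PA the HFD raised 3 of the 57 and lowered none, where 2.59% of all genes were called in either direction: Cxcl9, a chemokine induced by interferon gamma (2.76 ± 0.73, adjusted p = 0.0489), Slfn2 (1.85 ± 0.45, 0.0322) and Ifi30, a lysosomal thiol reductase (1.02 ± 0.23, 0.019). The macrophage markers lay at 5.94 to 8.10 on the HFD PA arrays and at 4.13 to 5.56 on the ND PA arrays beside that change, and their part in it was not tested. After weight loss 2 of the 57 fell in CD11c+ ATM, where 1.33% of all genes were called in either direction: Oas1g (-3.76 ± 0.79, adjusted p = 0.0263) and Ms4a4c (-2.39 ± 0.56, 0.0401), and none passed in CD11c- ATM. Between populations of lean fat, 2 were higher and 8 lower in ATDC than in CD11c- ATM, against 3.67% and 4.6% of all genes. In PA 4 were higher and 18 lower, against 12.6% and 10.8% of all genes, led by Epsti1 (-6.13 ± 0.58, adjusted p = 2.20e-07). Ifi205 was higher in both ATDC comparisons (3.18 ± 0.50 on ND and 3.06 ± 0.41 on HFD, adjusted p = 0.000307 and 0.000132).

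Several limits apply to single genes. Oas3 lay above the array median on 10 of 24 arrays, Mx1 on 14, Mx2 on 19 and Rsad2 on 20, so that low values of these genes have little meaning as levels. Among the called differences, the lower group also held an array below its own median for Mx2 (ND CD11c- ATM, 1 of 2 arrays), Oasl2 (ND ATDC, 1 of 2), Usp18 (WL CD11c- ATM, 1 of 2), Oas2 (ND PA, 1 of 3) and Mx1 (HFD CD11c+ ATM, 1 of 3), and the sizes of those differences are less certain. The Oas, Ifit, Gbp and Trim30 families hold closely similar genes, and because probe sequences were not used here, signal from a relative could not be separated from that of the gene named. Zbp1, a sensor of Z-form nucleic acid, Eif2ak2, the kinase Pkr, Dhx58, a relative of Ifih1, Irgm1, Cmpk2, Parp9, Herc6, Ifi35, Ifit3, Oas3, Irf7, Igtp, Rsad2 and Isg15 passed the threshold in none of the 11 comparisons.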

How the data were processed

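RNA from sorted stromal cells of mouse gonadal fat was measured on 24 single-colour arrays, 1 per sample, and the groups and replicate numbers were taken from the sample titles. The deposited table holds log2 values, which per the submitters' processing notes came from RMA with the tools oligo and limma, with no versions given. Whether limma changed the values themselves, as an adjustment for batches would, is not given there, and the standard errors and residual degrees of freedom take them as unadjusted. Its 41345 rows include 23521 with 1 gene symbol, 1814 with several and 16010 with none. The array's number and the brightness of its rows limit the precision, and array medians lay between 2.96 and 3.15. Of genes with several rows the one with the highest mean over all arrays was kept. A gene was tested if it lay above the array's own median on at least 2 arrays.

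All comparisons came from 1 fit with limma 3.58.1 in R 4.3.3, with a mean for each of the 9 groups, two-sided tests and Benjamini-Hochberg adjustment over 15496 genes. The fit was tested on simulated data with planted changes. The labels give no scan date or batch. Genes described in every group were Isg15, Irf7, Ifit1, Ifit3, Oas2, Rsad2, Stat2, Psmb8 and Bst2; Gbp2 was on the same list but had no row of its own. In each comparison the genes past the threshold were named, up to 12 by size, or the 3 largest where fewer than 3 passed; of other lists up to 4 past the threshold, and 8 genes most like the mean of the 37. The genes and lists were chosen with earlier results of these data known. Alternatives were a fit of only the groups compared, array weights, a trended and robust variance prior, no filter or a stricter filter on dim genes, the mean of a gene's rows, arrays centred on their medians, the replicate number as a block, and each array left out in turn. An alternative without the arrays set apart by another cell type's markers was chosen after seeing the data.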

Additional observations from a re-analysis of the deposited data

How the results depend on the processing

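All 37 calls of single genes kept their sign under every alternative run; 13 held with each array left out in turn and 12 under every alternative. Counts of genes past the threshold moved as follows, and they include genes called only under the alternative. In a fit of only the groups compared they were 0 for WL against HFD and 0 for WL against ND in CD11c- ATM, 0 between the WL macrophages, 4 for HFD ATDC against CD11c+ ATM and 4 for ND ATDC against CD11c- ATM. With array weights they were 1 for WL against HFD in CD11c- ATM, 1 in CD11c+ ATM, 3 for WL against ND and 0 between the WL macrophages. With the trended and robust prior they were 1 and 1 for WL against HFD in CD11c- and CD11c+ ATM, with the stricter filter 2 in CD11c+ ATM, and with centred arrays 1 in CD11c- ATM. Without the arrays set apart by another cell type's markers, chosen after seeing the data, they were 0 for WL against HFD in CD11c- ATM and 0 for HFD ATDC against CD11c+ ATM. The cause was not tested. With each array left out, counts ran from 0 to 2 for WL against HFD in CD11c- ATM, 0 to 3 in CD11c+ ATM, 0 to 3 for WL against ND, 0 to 1 between the WL macrophages, 1 to 6 for HFD ATDC against CD11c+ ATM, 5 to 6 for ND ATDC, 9 to 12 for ND PA, 0 to 1 for HFD against ND in ATDC, and 0 elsewhere; an array left alone in its group was assumed to vary like the other groups. The labels do not say whether same-numbered samples came from 1 pool of mice. Deviations of same-numbered samples correlated between -0.131 and 0.252, which with 2 or 3 arrays per group cannot settle whether they shared a pool. Replicate 1 had the highest mast cell markers in all 4 HFD groups. The main fit did not treat the numbers as pairs. With the replicate block the count was 1 for WL against HFD in CD11c- ATM and 0 between the WL macrophages, and every other count stayed within 1.5 times; the block lost the calls of Ifih1 (adjusted p = 0.0652), Gbp3 (0.0682 between the WL macrophages, 0.0547 in ND PA) and Psmb8 (0.0588 in HFD ATDC).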
